A study of Mus musculus with 4 samples.

Results

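Rbpj and 7 genes that act with it or downstream of it in Notch signalling (Hes1, Hey1, Hey2, Heyl, Nrarp, Tle4 and Lfng) were followed through the cell types of mouse fracture callus. The 8 genes were chosen by name from the 32285 genes of the count tables. No cut on their levels was used, but earlier results of these data were known. All 8 were found in the count tables by symbol. The mice were wild-type C57BL/6J, 3 months old, and carried a tibial fracture. Control mice received vehicle, and rheumatoid arthritis (RA) mice received K/BxN serum, whose transfer brings on arthritis in the recipient. Callus was taken at 4 and 7 days post fracture (dpf), which gave 4 single-cell libraries, control_4d, control_7d, RA_4d and RA_7d. Each was made from 1 pool of calluses scraped from the bone surface (4 per pool by the sample labels, although the methods of the study state another number). With 1 library for each condition, differences between RA and control have no test, and condition and library preparation cannot be told apart. Intervals are 95% intervals that cover counting error only.

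Notch receptors are cut when a neighbouring cell presents a Delta or Jagged ligand, and the freed intracellular part travels to the nucleus. There it binds RBPJ, a DNA-binding protein that holds target genes down together with corepressors when no Notch is present and drives them when it is. Hes1 and the Hey genes are classic targets and encode transcriptional repressors. Nrarp, also a target, encodes a protein that limits Notch signalling. Tle4 encodes a corepressor of the Groucho family that HES proteins recruit, and Lfng encodes a glycosyltransferase that modifies Notch receptors and so changes their response to ligands. In vessels, Notch is best known for arterial identity, for the choice between tip and stalk cells and for the maturation of mural cells, the pericytes and smooth muscle cells that wrap the endothelium. In muscle it keeps stem cells quiescent.

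RBPJ recognises the letters TGGGAA, most often with a G before them, and the RefSeq promoter windows (GRCm38.p6, 250 bases before to 50 after a gene's start) were searched for TGGGAA and GTGGGAA on both strands, where every match to the longer motif is also a match to the shorter one. Windows were at hand for 5 of the 8 genes (Rbpj, Hey2, Nrarp, Tle4 and Lfng). The shorter motif was found in 25.6% of all 32851 windows and the longer in 6.38%. The stretches of 30 bases that hold a match are shown because they are the places near the members' own starts where RBPJ could in principle bind, with the 6 bases of the motif, or of its reverse complement, in capitals and each sequence on its gene's strand. The Hey2 matches begin 3 and 207 bases before the RefSeq start, in the stretches chr10:30842769-30842798 and chr10:30842973-30843002 on the minus strand. The first match thus runs across that start, and both have the G of the longer motif. In GENCODE M21 the gene begins at chr10:30842801, so the first stretch lies inside it.
Hey2, near the start: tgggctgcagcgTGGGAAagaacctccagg
Hey2, farther upstream: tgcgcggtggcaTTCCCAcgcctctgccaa
The Lfng matches lie 108 and 135 bases before the start, at chr5:140607221-140607250 and chr5:140607194-140607223 on the plus strand. The first has the G of the longer motif and the second has not.
Lfng, first match: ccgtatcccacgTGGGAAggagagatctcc
Lfng, second match: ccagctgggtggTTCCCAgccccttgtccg
The Rbpj windows overlap and lie at starts inside the gene, which begins at chr5:53466152 in GENCODE M21. Of the Rbpj matches, at chr5:53590185-53590214 and chr5:53590269-53590298 on the plus strand, neither has the G of the longer motif. The first lies 149 bases before a start, and the second 65 bases before the same start and 205 before another.
Rbpj, first match: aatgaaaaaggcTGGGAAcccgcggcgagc
Rbpj, second match: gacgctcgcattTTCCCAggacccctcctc
The windows of Nrarp and Tle4 held no match to these letters, which says nothing about binding elsewhere. A match describes the sequence and is not a binding site by itself.

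After filtering, 25479 cells with 490126591 unique molecular identifiers (UMIs, each standing for 1 captured mRNA molecule) remained, between 83405494 and 156567619 per library, at a median of 16094 to 17632 UMIs per cell. Cells were clustered without the 8 genes and the other Notch pathway genes, and clusters were named from marker genes. The names stand for cells that resemble a type, and the suffix "-like" is left out from here on. The named lineages were endothelial (3165 cells), mural (749), muscle (909), myeloid (10084) and mesenchymal (9067), besides lymphoid (719) and Schwann cells (300), and 486 cells stayed unnamed. Summed markers of another lineage were below their level in that lineage but were not absent. The summed level of 5 pan-endothelial markers (Pecam1, Cdh5, Tie1, Esam and Ptprb) was 3476 CPM (UMIs of a gene per 1000000 UMIs of the cells summed) in endothelial cells and between 33.0 and 39.8 CPM in the mesenchymal cells of the 4 libraries. In mural cells it was 170 to 193 CPM. Mural cells also held 2911 to 5042 CPM of 5 mesenchymal markers, against 33000 CPM in mesenchymal cells. Muscle cells held 397 to 1085 CPM of 5 smooth muscle markers, against 13010 CPM in mural cells. Cell barcodes shared by a pair of libraries numbered 5 to 15. The doublet caller marked 1 cell of RA_4d and between 60 and 310 cells of the other libraries, so it did not work in RA_4d.

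The 8 genes divided among the lineages in different ways. Myeloid cells gave 31.0% of all UMIs but 55.4% of the Rbpj UMIs, 52.5% of the Tle4 UMIs and 76.2% of the Lfng UMIs. Mesenchymal cells, the fibroblasts and progenitors that form the callus, gave 48.2% of all UMIs and 72.4% of the Hes1 UMIs. Endothelial cells held 11% of all UMIs, 30.6% of the Hey1 UMIs and 43.8% of the Nrarp UMIs. Mural cells, with 2.15% of all UMIs, held 45.3% of the Hey2 and 34.9% of the Nrarp UMIs, and muscle cells, with 3.11%, held 42.03% of the Heyl UMIs.

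**Figure D1:**
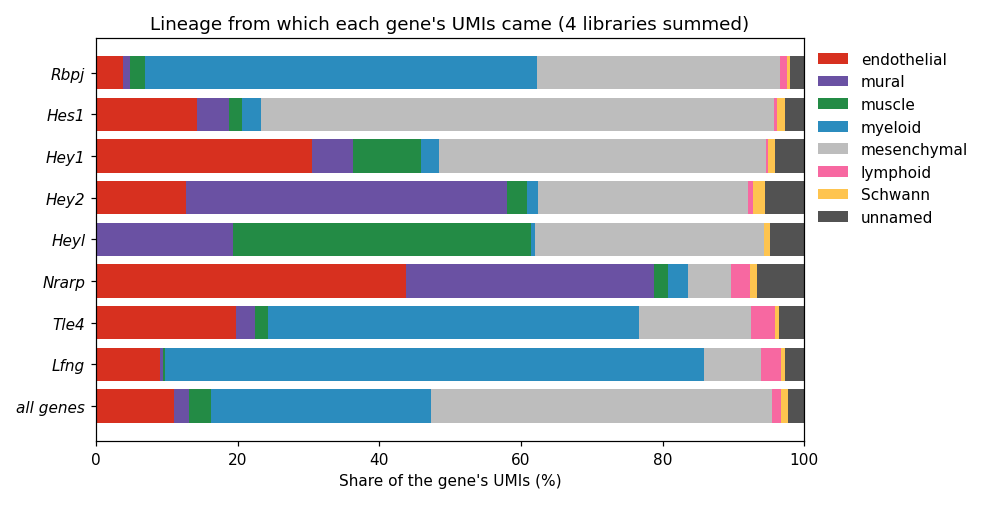
Horizontal bars show, for each of the 8 genes and for all genes together, the share of UMIs (%, x axis) that came from each lineage, with the 4 libraries summed. Myeloid cells gave 76.2% of the Lfng UMIs and 2.80% of the Hes1 UMIs, while mural cells, with 2.15% of all UMIs, gave 45.3% of the Hey2 UMIs.

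The lineages were then set against mesenchymal cells inside each library, with a gene counted as higher if its log2 ratio (with 1 CPM added to both levels) was at least 1 in each of the 4 libraries. Among genes with at least 50 UMIs over both lineages, 5.75% were higher in mural cells by this rule, and among the members 5 of 8 were (Hey1, Hey2, Heyl, Nrarp and Tle4). In endothelial cells 7.92% of all genes were higher, and 3 of the 8 members were, Nrarp, Tle4 and Lfng, whereas 9.3% of all genes and Heyl among the members were lower. In muscle cells 3.82% of genes were higher, with 2 members, Heyl and Nrarp. By the same rule in reverse, Hes1 was lower in muscle cells. The share of all genes that were lower is not given here for mural and muscle cells, so nothing can be set beside it. In myeloid cells 9.36% were higher, with Rbpj, Tle4 and Lfng, and 15% were lower, with Hes1, Hey1 and Heyl. These contrasts have no test, since classes were drawn from the same cells, and the 4 libraries are 4 different conditions and not replicates of 1.

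**Figure D2:**
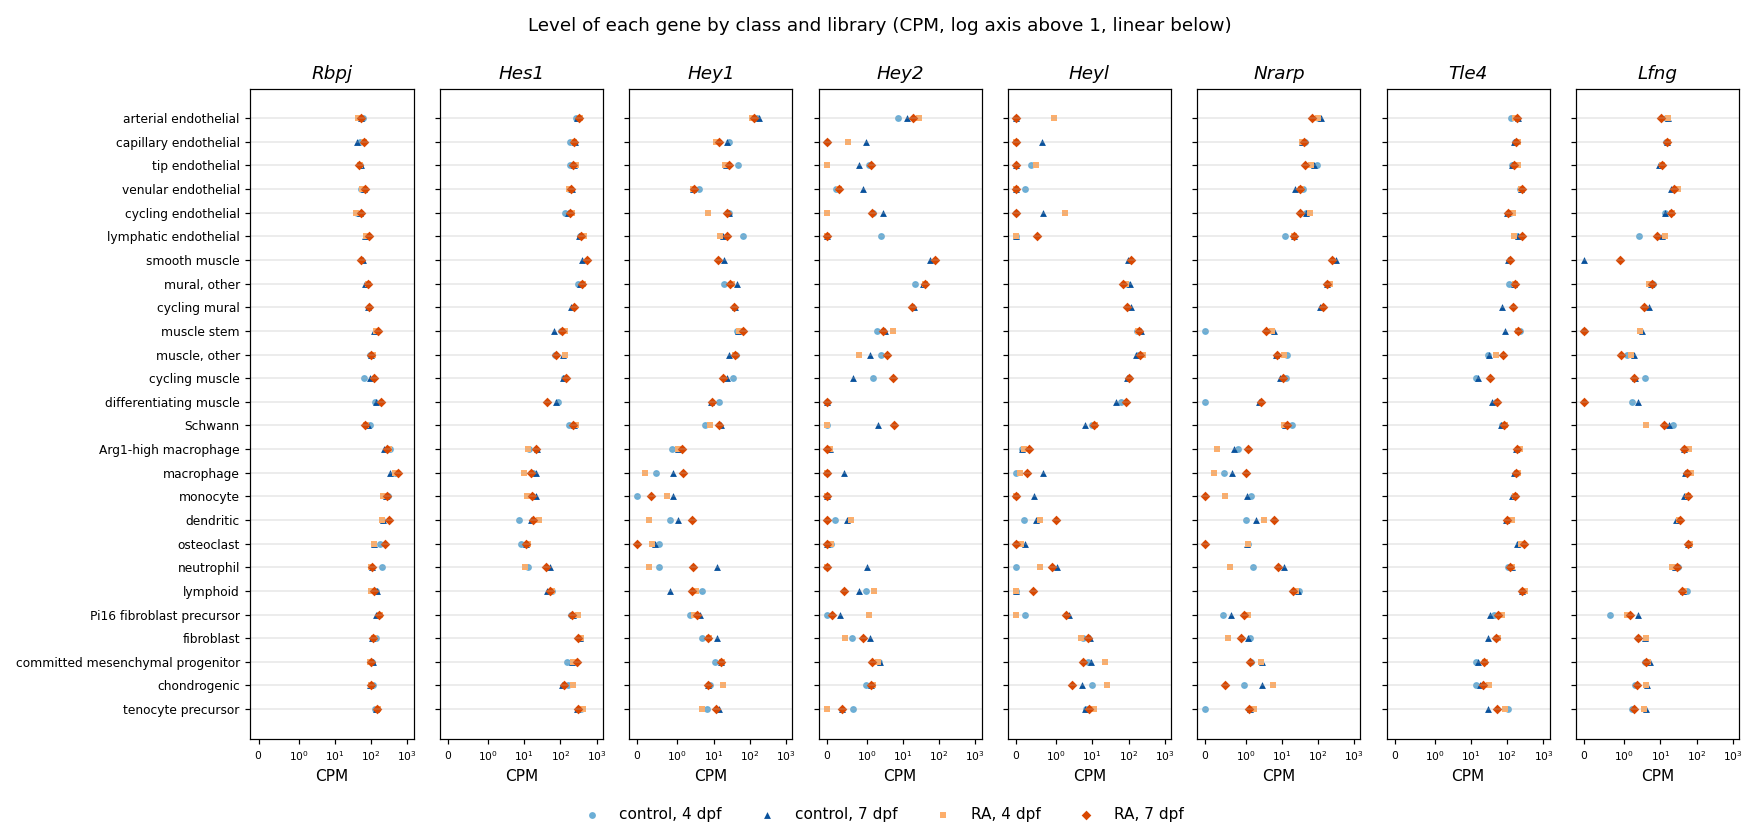
Each panel gives the level of 1 gene (CPM, log axis above 1 and linear below) in the 26 named classes, with 1 point per library that held at least 20 cells of the class. Rbpj lies between 335 and 558 CPM in macrophages and between 38.9 and 84.9 CPM over the endothelial classes, while Hey2 and Heyl are near 0 in myeloid classes.

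Rbpj itself was highest in macrophages, the class led by Ccl8, Mrc1 and Cbr2. There it reached 447 CPM in control_4d, 335 CPM in control_7d, 466 CPM in RA_4d and 558 CPM in RA_7d. In macrophages with high Arg1, an enzyme that competes with nitric oxide synthase for arginine, it was 332, 225, 307 and 280 CPM in the same order. In all 4 libraries the macrophages were above the Arg1-high macrophages, and the ranges did not overlap. Monocytes (215 to 298 CPM) and dendritic cells (197 to 310 CPM) came next, with ranges that overlapped those of their neighbours in the order. Osteoclasts, which resorb bone, held 119 to 249 CPM and neutrophils 97.0 to 206 CPM.

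Over libraries with at least 20 cells of a class, the 4 lowest means were those of endothelial classes, while with all cells summed smooth muscle (51.9 CPM) lay below arterial (52.8 CPM) and capillary cells (54.0 CPM). Rbpj stood at 61.1, 52.2, 43.9 and 52.1 CPM in arterial cells of control_4d, control_7d, RA_4d and RA_7d, and the means over the libraries were 54.4 CPM in capillary, 52.3 in arterial, 50.2 in tip and 45.2 in cycling endothelial cells. The ranges of neighbours among these 4 classes overlapped. Muscle stem cells held 119 to 153 CPM and differentiating muscle cells 131 to 189 CPM in the 3 libraries with enough cells, and mesenchymal classes ranged from 90.5 to 175 CPM. Thinned at random to 4000 UMIs per cell, so that cells of unequal depth can be compared, 60.9% of myeloid cells had an Rbpj UMI (88.4% unthinned) against 20.5% of endothelial cells (55.7% unthinned), at median depths of 12999 and 15431 UMIs. In GENCODE M21 Rbpj spans chr5:53466152-53657362 in GRCm38, and processed pseudogene copies exist that are not rows of the count tables, so reads shared with them cannot be followed here.

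Hes1 (chr16:30064384-30067796) was low in the myeloid classes. It was highest in smooth muscle cells, at 399 CPM in control_7d and 540 CPM in RA_7d, the libraries with at least 20 such cells, and lymphatic endothelial cells held 356, 320, 460 and 363 CPM in control_4d, control_7d, RA_4d and RA_7d. The mural cells outside the smooth muscle and cycling classes (306 to 420 CPM), tenocyte precursors (285 to 423 CPM), fibroblasts (313 to 382 CPM) and arterial endothelial cells (271 to 343 CPM) followed, and neighbours in this order had overlapping ranges. Among myeloid classes, macrophages had 17.5, 21.6, 9.99 and 15.1 CPM in the order just given, and osteoclasts had 8.38 to 13.04 CPM. The neutrophil class stood apart in the 7 dpf libraries, with 52.3 CPM in control_7d and 40.6 CPM in RA_7d against 12.6 CPM in control_4d and 10.8 CPM in RA_4d. In those same libraries the summed pan-endothelial markers of this class were 458 and 634 CPM, against 187 and 160 CPM at 4 dpf, and its 5 summed mesenchymal markers were 536 and 2198 CPM, against 134 and 58.3 CPM. The part of either in the Hes1 level was not tested.

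Over the 98 sums of a class in a library with at least 20 cells, Rbpj and Hes1 had a Pearson r of -0.72, and Rbpj and Nrarp one of -0.76, on the log2(CPM + 1) scale. The sums are not independent, because classes of 1 library share its preparation. The genes whose pattern was most like that of Rbpj were B4galt5 (r = 0.91), a galactosyltransferase, Evi2a (0.86) and Lpin2 (0.84), a phosphatidate phosphatase. For Hes1 they were Parva (0.93), an actin-binding adhesion protein, Tgfb1i1 (0.93), also of focal adhesions, and Cachd1 (0.93).

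Among the classes, Hey1 (chr3:8663359-8667256) was highest in arterial endothelium, while among whole lineages, with the libraries summed, its level was highest in muscle cells. That order of lineages changed between libraries, since in control_4d and control_7d endothelial cells as a whole were above muscle cells. In arterial cells control_4d held 157 CPM, control_7d 177 CPM, RA_4d 115 CPM and RA_7d 133 CPM, against 27.4, 22.7, 11.7 and 14.3 CPM in capillary cells. All 4 libraries had the same order with no overlap, and the summed ratio was 7.64 (6.58 to 8.90). Venular cells held only 3.89, 2.71, 2.70 and 2.88 CPM, below capillary cells in every library. Tip cells, which lead sprouts, held 21.2 to 48.7 CPM and overlapped capillary cells. Hey2 was also higher in arterial than in capillary cells, at 7.19, 12.5, 28.6 and 19.1 CPM against 0, 0.988, 0.533 and 0 CPM, which rests on 92 and 4 UMIs.

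Counted over all genes, 3.26% were at least 2-fold higher in arterial than in capillary cells in all 4 libraries, 0.611% were higher in tip cells, and 2.29% were higher and 1.13% lower in venular cells. Among the members these were Hey1 and Hey2 in arterial cells, none in tip cells, none higher in venular cells and Hey1 lower in them. Of the 8 genes, 7 had at least 50 UMIs in the arterial comparison and 6 in each of the others. Nrarp was higher in arterial than in capillary cells in each library, but by a log2 ratio of only 0.76 in RA_7d. Its 4 arterial values were 101, 126, 101 and 68.9 CPM, and its capillary values 42.9, 37.5, 36.2 and 40.3 CPM.

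Mural cells held the highest levels of Hey2 (chr10:30832359-30842801) and Nrarp (chr2:25180758-25183339) and much Heyl. Hey2, which in development is needed in vascular smooth muscle and the heart, reached 56.1 CPM in control_7d and 75.7 CPM in RA_7d in smooth muscle cells, and 21.9, 34.7, 39.7 and 41.2 CPM in the other mural cells of control_4d, control_7d, RA_4d and RA_7d. Heyl stood at 97.1 and 114 CPM in smooth muscle cells of the 7 dpf libraries and at 93.0, 113, 87.8 and 69.6 CPM in other mural cells. In endothelial cells it was near the limit of detection, with 10 UMIs in 3165 cells (0.186 CPM) against 1020 UMIs in 749 mural cells (96.8 CPM). Nrarp was 315 and 249 CPM in smooth muscle cells at 7 dpf and 178, 183, 219 and 180 CPM in other mural cells, above arterial cells in every library. The summed ratio of mural to endothelial cells was 18.1 (14.8 to 22.4) for Hey2 and 4.07 (3.84 to 4.31) for Nrarp, and these 3 genes were at least 2-fold higher in mural cells in each library, as were 9.66% of all genes.

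The genes most like Hey2 over the class sums were Gucy1a1, a subunit of the nitric oxide receptor (r = 0.81), Gper1 (0.81) and Rasl11a (0.80). Those most like Nrarp were Mcam, an adhesion molecule of mural and endothelial cells (0.88), Tinagl1 (0.84) and Sncg (0.83). Hey1 went most closely with Tead2, a partner of YAP (0.84), Cdc42ep1 (0.84) and Id3 (0.83).

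**Figure D3:**
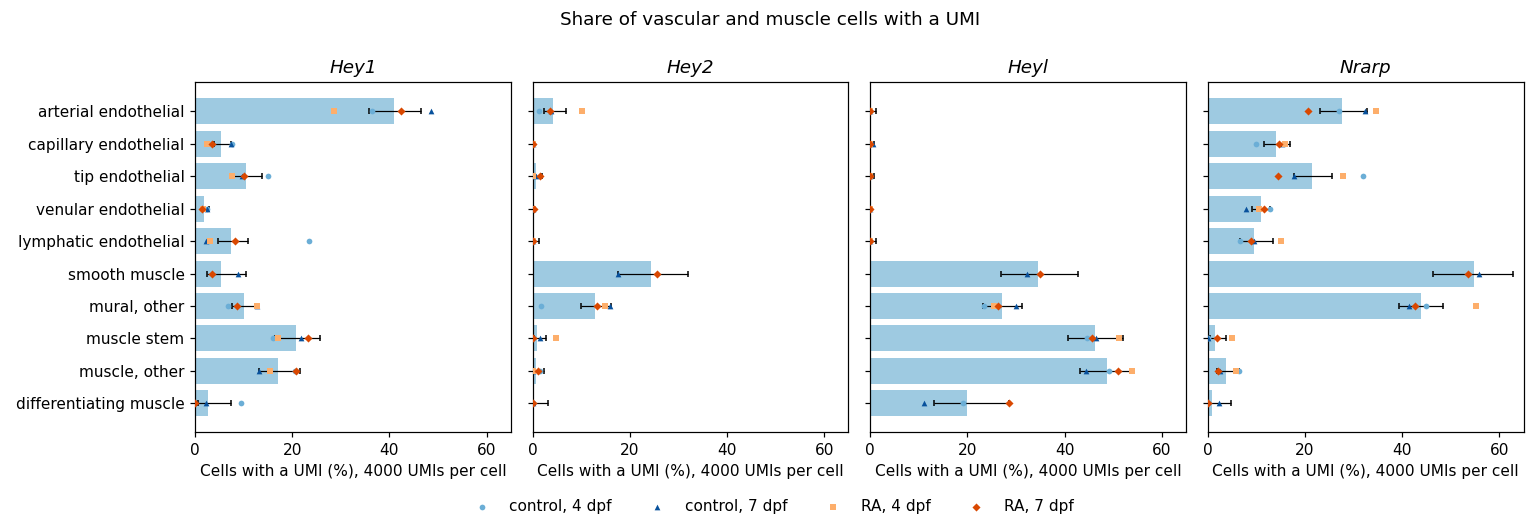
Bars give the share of cells (%) with a UMI of Hey1, Hey2, Heyl or Nrarp after thinning each cell to 4000 UMIs, over the 4 libraries summed, with exact 95% binomial intervals, and points give libraries with at least 20 cells. Hey1 was found in 41.0% of arterial cells and 1.84% of venular cells, and Heyl in 46.4% of muscle stem cells.

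After thinning, 41.0% of arterial cells had a Hey1 UMI, against 5.41% of capillary and 1.84% of venular cells, and the share in myeloid cells, which served as a type that should lack it, was 0.44%. For Nrarp the share was 54.7% in smooth muscle cells, 27.7% in arterial cells and 0.53% in myeloid cells. Without thinning the Nrarp share was 70.9% of all mural and 1.36% of all myeloid cells. Hey2 gave no UMI in 1278 monocytes, which allows a level of up to 0.191 CPM.

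Heyl (chr4:123233556-123249875) was highest in muscle cells. Muscle stem cells, named from Pax7, Myf5 and other markers, held 171, 220, 187 and 197 CPM in control_4d, control_7d, RA_4d and RA_7d, and the muscle cells given no finer name held 182, 161, 253 and 203 CPM. Their ranges overlapped. Differentiating muscle cells, led by Acta1, Actc1 and Myog, held 62.5, 44.7 and 85.8 CPM in control_4d, control_7d and RA_7d, below the stem cells in each of those libraries. Hey1 followed with 43.2, 46.5, 48.8 and 63.7 CPM in stem cells and 14.4, 8.24 and 9.24 CPM in differentiating cells of those 3 libraries. Hes1 stood at 99.96, 102, 132 and 88.8 CPM in muscle cells, below the 246, 239, 301 and 280 CPM of mesenchymal cells in every library. The nearest patterns to Heyl were those of Itga7, the laminin receptor subunit of muscle (r = 0.93), Des, which encodes desmin (0.93), and Cap2 (0.91).

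Lfng (chr5:140607320-140615545) was highest in leukocytes. Osteoclasts held 60.6, 58.5, 67.8 and 58.9 CPM in control_4d, control_7d, RA_4d and RA_7d, macrophages 53.0, 49.0, 69.6 and 54.6 CPM, and lymphoid cells 55.2, 42.9, 45.6 and 38.8 CPM. The macrophage range overlapped both others, while every osteoclast value was above every lymphoid value. With the libraries summed, monocytes (53.5 CPM) and Arg1-high macrophages (48.5 CPM) lay between macrophages (56.4 CPM) and lymphoid cells (44.1 CPM). Venular cells, at 19.9 to 30.4 CPM, were the highest of the endothelial classes, whereas every mesenchymal class was at 5.11 CPM or below. Its nearest patterns were those of Lcp1, an actin-bundling protein of leukocytes (r = 0.91), Inpp5d, the phosphatase SHIP1 (0.91), and Nrros (0.90).

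Tle4 (chr19:14448150-14598051) was found at high levels in several lineages. Lymphoid cells held 252, 250, 309 and 261 CPM, venular endothelial cells 224, 236, 240 and 264 CPM, and osteoclasts 206, 185, 246 and 283 CPM in control_4d, control_7d, RA_4d and RA_7d. Committed mesenchymal progenitors were lowest, at 13.4, 15.7, 24.0 and 22.6 CPM, and chondrogenic cells nearly so, at 13.6, 17.4, 30.7 and 20.8 CPM. Muscle stem cells were well above other muscle cells in each library, at 223, 86.8, 203 and 197 CPM against 28.7, 31.0, 47.6 and 77.7 CPM. Its nearest patterns, Pnpla2 (r = 0.80), Pak2 (0.79) and Sertad1 (0.79), had lower coefficients than the nearest patterns of each other member.

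The remaining pathway genes, a list of 63 written from general knowledge of which 62 were found, gave the setting. By the rule used for the members, 7.92% of all genes were higher than in mesenchymal cells in endothelial, 5.75% in mural, 3.82% in muscle and 9.36% in myeloid cells. Lower were 9.3% in endothelial and 15% in myeloid cells, and the lower share is not given here for mural and muscle cells. Against mesenchymal cells, 13 of 61 list genes with enough UMIs were higher in endothelial cells and 4 lower. The leading ones were Gata2, a transcription factor of blood and endothelium (110 CPM against 1.19 CPM), the arterial ligand Dll4 (63.7 against 0.313 CPM) and Mfng, a relative of Lfng (53.2 against 0.33 CPM). In mural cells 3 of 61 were higher and none lower, led by Notch3, the receptor of mural cells, at 744 against 12.8 CPM, and followed by Neurl1b, a ubiquitin ligase that acts on ligands (29.4 against 1.93 CPM), and Notch1 (85.5 against 33.7 CPM). In muscle cells 7 of 61 were higher and 5 lower, led by Notch3 (188 CPM), the ligand Dll1 (39.7 against 2.11 CPM) and Gata2. In myeloid cells 3 of 62 were higher and 9 lower, led by Aph1c, a γ-secretase subunit (75.9 against 8.75 CPM), Mfng (8.46 against 0.33 CPM) and the ligand Jag2 (2.62 against 0.762 CPM), of which Jag2 did not reach 2-fold in each library. The higher share of the list in mural cells, and both its shares in myeloid cells, lay below those of all genes.

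RA was then compared with control at each time point in each lineage, and a gene was counted if the ratio passed 1.5-fold on the log2 scale with 1 CPM added and its counting interval left out 1. Of 34 pairs of a member and a lineage with at least 50 UMIs, 7 were counted at 4 dpf, 6 higher and 1 lower in RA, and 4 at 7 dpf, 3 higher and 1 lower. Read against all genes, the share counted at 4 dpf was 4.43% in endothelial, 9.7% in mural, 16.4% in muscle, 6.65% in myeloid and 6.92% in mesenchymal cells. At 7 dpf it was 7.86%, 9.15%, 19.3%, 7.03% and 8.94%. The median log2 ratio over all genes stayed between -0.03 and 0.04 in every lineage and time.

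**Figure D4:**
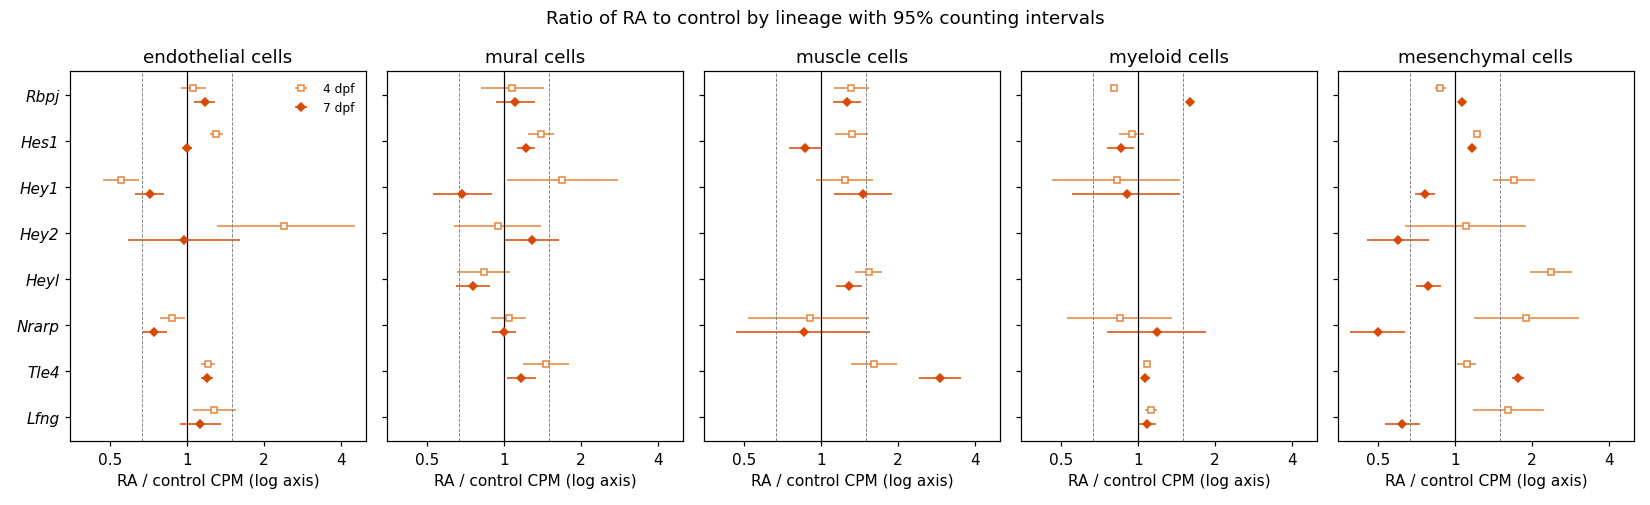
The ratio of RA to control levels (log axis) is shown for members with at least 50 UMIs in each of 5 lineages, with open squares for 4 dpf and filled diamonds for 7 dpf, 95% counting intervals as lines and dashed lines at 1.5-fold. Rbpj in myeloid cells was at 0.81 at 4 dpf and 1.60 at 7 dpf, and Tle4 in muscle cells was at 2.93 at 7 dpf.

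For Rbpj, myeloid cells of RA_7d stood out. The level over all myeloid cells was 318 CPM in control_4d, 257 in RA_4d, 236 in control_7d and 379 in RA_7d, a ratio of 0.81 (0.79 to 0.83) at 4 dpf and 1.60 (1.55 to 1.65) at 7 dpf. Control was thus the lower library at 7 dpf and the higher one at 4 dpf. At 7 dpf the ratio was 1.66 (1.59 to 1.74) in macrophages, 1.25 (1.17 to 1.32) in Arg1-high macrophages, 1.11 (1.02 to 1.22) in monocytes, 1.47 (1.30 to 1.67) in dendritic cells and 2.09 (1.69 to 2.57) in osteoclasts, of which RA_7d held 24. It was 0.95 (0.75 to 1.20) in neutrophils. At 4 dpf macrophages had a ratio of 1.04 (1.00 to 1.08), while the other 5 myeloid classes were lower in RA. The intervals of 4 of these lay below 1. Osteoclasts, monocytes and neutrophils were at 0.70, 0.72 and 0.47. Arg1-high macrophages were at 332 CPM in control_4d and 307 CPM in RA_4d. Neutrophils were 245 of 2415 myeloid cells in RA_4d and 70 of 3357 in control_4d, and their part in the 4 dpf ratio was not tested. At 7 dpf the make-up differed too, with macrophages 633 of 1604 myeloid cells in RA_7d and 803 of 2708 in control_7d. With each class given the same weight the log2 ratio at 7 dpf was 0.46 in place of 0.68, which is short of 1.5-fold.

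In endothelial, mural, muscle and mesenchymal cells the Rbpj ratio lay between 0.88 and 1.32 at both times. In endothelial cells it was 1.06 (0.95 to 1.19) at 4 dpf and 1.17 (1.07 to 1.29) at 7 dpf, and in mural cells 1.08 (0.81 to 1.43) and 1.11 (0.93 to 1.33). Summed muscle cells were a little higher in RA, at 1.32 (1.13 to 1.54) and 1.27 (1.12 to 1.44). None of these lineage ratios passed 1.5-fold. At 4 dpf 1 of the 2 muscle classes compared was higher and 1 lower, with neither interval leaving out 1. At 7 dpf 3 of 4 were higher and 1 lower, and the interval of 1 left out 1. Cycling muscle cells, at 63.5 CPM in control_4d, were 61 of 201 muscle cells there and 10 of 110 in RA_4d. The part of this make-up in the ratio was not tested.

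**Figure D5:**
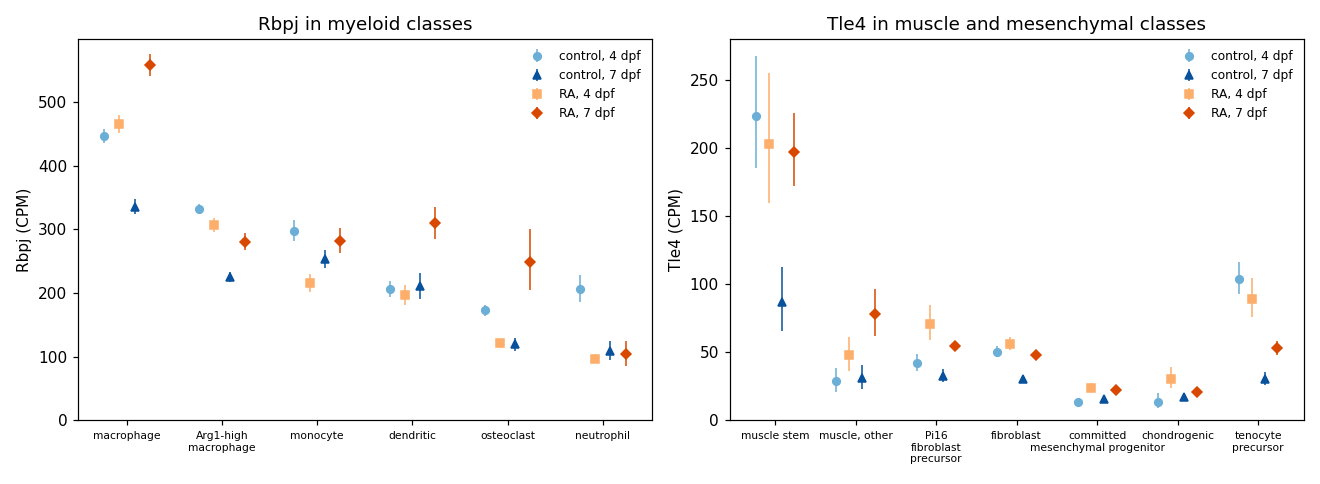
Levels (CPM) of Rbpj in 6 myeloid classes and of Tle4 in muscle and mesenchymal classes are drawn with exact 95% Poisson intervals, 1 point per library with at least 20 cells. Rbpj in macrophages was lowest in control_7d (335 CPM) and highest in RA_7d (558 CPM), and Tle4 in muscle stem cells was lowest in control_7d (86.8 CPM).

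Tle4 was higher in RA in most classes. In muscle cells it was 46.2 CPM in control_4d, 74.7 in RA_4d, 35.0 in control_7d and 103 in RA_7d, with ratios of 1.62 (1.32 to 1.99) and 2.93 (2.43 to 3.55). At 4 dpf 1 of the 2 classes compared was higher and the stem cells were lower, at 0.91 (0.67 to 1.23), and with equal weights the log2 ratio of 0.29 no longer passed 1.5-fold. At 7 dpf all 4 muscle classes compared were higher in RA, and the intervals of 3 left out 1. The stem cells made up 151 of 309 muscle cells in RA_7d and 69 of 289 in control_7d, and with equal weights the log2 ratio at 7 dpf was 0.97 in place of 1.52. In mesenchymal cells the levels were 40.3, 44.8, 22.6 and 39.8 CPM in control_4d, RA_4d, control_7d and RA_7d, with a ratio of 1.77 (1.67 to 1.87) at 7 dpf. All 5 mesenchymal classes were higher in RA at 7 dpf, among them tenocyte precursors at 1.75 (1.45 to 2.11) and fibroblasts at 1.60 (1.47 to 1.74), and 4 of 5 were at 4 dpf. With equal weights the log2 ratio at 7 dpf was 0.58 and just missed 1.5-fold. In both lineages control_7d was the lowest library.

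Hey1 in endothelium went the other way at 4 dpf. Its level over all endothelial cells was 38.2 CPM in control_4d and 21.1 in RA_4d, a ratio of 0.55 (0.47 to 0.65), and all 6 endothelial classes were lower in RA, 5 with an interval below 1. With a looser cell filter the log2 ratio was -0.58 in place of -0.83, just short of 1.5-fold. The ratio by class was 0.74 (0.58 to 0.92) in arterial, 0.43 (0.25 to 0.69) in capillary and 0.43 (0.30 to 0.62) in tip cells. At 7 dpf the levels were 35.1 CPM in control_7d and 25.1 in RA_7d (0.72, 0.63 to 0.82), with 3 classes lower and 3 higher. Nrarp was lower in RA tip cells at both times, at 0.70 (0.56 to 0.86) and 0.56 (0.44 to 0.72), and in arterial cells at 7 dpf, at 0.55 (0.43 to 0.69). In venular cells Nrarp was higher in RA at 7 dpf, at 1.37 (1.05 to 1.80). Hey2 in endothelial cells had a ratio of 2.40 (1.31 to 4.54) at 4 dpf on 18 and 32 UMIs and of 0.97 (0.59 to 1.61) at 7 dpf. Arterial cells held 10 and 30 of the UMIs at 4 dpf, at 7.19 CPM in control_4d and 28.6 CPM in RA_4d. With classes weighted equally the Hey2 log2 ratio at 4 dpf turned to -0.28. The classes lower in RA were tip, cycling and lymphatic cells, with 3, 3 and 1 UMIs in control_4d and 0 in RA_4d. The Hes1 ratio in endothelial cells was 1.30 (1.23 to 1.38) at 4 dpf and 1.00 (0.96 to 1.05) at 7 dpf.

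In mural cells Nrarp had ratios of 1.04 (0.89 to 1.22) and 1.00 (0.90 to 1.12) at 4 and 7 dpf, Hey2 ones of 0.95 (0.64 to 1.39) and 1.28 (1.01 to 1.65), and Heyl ones of 0.84 (0.66 to 1.06) and 0.76 (0.65 to 0.88). Hes1 was higher in RA at both times, at 1.40 (1.24 to 1.57) and 1.22 (1.13 to 1.32). Of the members, only Hey1 at 4 dpf was counted, at 1.69 (1.03 to 2.81) on 32 and 37 UMIs, and at 7 dpf its ratio was 0.69 (0.53 to 0.90). Mural cells numbered 88 and 68 in the libraries at 4 dpf, so for members with few UMIs smaller differences could not be told from counting error there.

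In mesenchymal cells, where Hey1, Heyl and Nrarp are low, the RA libraries were on opposite sides of control at the 2 times. Heyl was 5.83 CPM in control_4d, 13.8 in RA_4d, 7.52 in control_7d and 5.93 in RA_7d, which gives 2.37 (1.97 to 2.87) and 0.79 (0.70 to 0.88). In the same order committed mesenchymal progenitors were at 7.64, 22.8, 8.91 and 5.47 CPM, whereas fibroblasts were at 5.66, 4.95, 8.54 and 7.73 CPM. Nrarp was 1.07, 2.02, 2.07 and 1.03 CPM, with ratios of 1.89 (1.18 to 3.06) and 0.50 (0.39 to 0.64), of which the latter no longer passed 1.5-fold with equal weights (log2 ratio -0.42) or a pseudocount of 10 CPM (-0.13). Beside these, in that order too, the 5 pericyte markers summed to 24.3, 29.0, 71.6 and 66.7 CPM in mesenchymal cells, and the 5 smooth muscle markers to 308, 385, 538 and 120 CPM, against 4758 and 13010 CPM in mural cells. Their part in the Heyl and Nrarp values was not tested.

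In muscle cells Heyl was 133 CPM in control_4d, 204 in RA_4d, 125 in control_7d and 160 in RA_7d, with ratios of 1.54 (1.36 to 1.74) and 1.29 (1.14 to 1.45). The stem cells themselves had ratios of 1.10 (0.79 to 1.51) and 0.90 (0.72 to 1.12), the muscle cells given no finer name 1.39 (1.18 to 1.63) and 1.26 (1.05 to 1.52), and differentiating cells 1.92 (1.27 to 2.94) at 7 dpf. With equal weights for the stem cells and the cells given no finer name, the log2 ratio at 4 dpf was 0.30, short of 1.5-fold. Cycling and differentiating cells had no part in that value, since RA_4d held only 10 and 7 of them. Cycling muscle cells, which hold less Heyl, were 61 of 201 muscle cells in control_4d and 10 of 110 in RA_4d.

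Of the pathway list in muscle cells, 6 of 46 genes were higher and none lower at 4 dpf, and 8 of 47 higher and none lower at 7 dpf, where 16.4% and 19.3% of all genes were counted. Both shares of the list lay below those of all genes. The median log2 ratio of the list there was 0.20 and 0.18, against 0.03 and 0.02 over all genes, and it lay between 0.02 and 0.15 in the other 4 lineages. By the naming rule the leading genes were Maml2, a coactivator that joins Notch and RBPJ (53.3 CPM in control_7d and 121 in RA_7d, 2.26, 1.93 to 2.66), Myc, a known Notch target (47.3 and 102 CPM), and the corepressor Tle3 (79.8 and 140 CPM). In endothelial cells 1 of 55 was higher at 4 dpf and 4 of 55 at 7 dpf, where 4.43% and 7.86% of all genes were counted. Both shares of the list were again below those of all genes. The 4 at 7 dpf included the Notch modulator Dtx1 (6.22 and 13 CPM) and the ligand Dll1 (30.1 and 52.7 CPM, 1.75, 1.55 to 1.97). Tle2 had 2.28 and 4.10 CPM. In mural cells 3 were higher and 1 lower of 39 at 4 dpf, and 1 and 2 of 47 at 7 dpf, where 9.7% and 9.15% of all genes were counted. The coactivator Kat2b (44.5 and 59.2 CPM) and the corepressors Tle1 (96.3 and 121 CPM) and Hdac2 (54.2 and 43.1 CPM) led there by the naming rule, and none of them passed 1.5-fold.

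In myeloid cells 1 of 56 list genes was higher at 4 dpf, and 1 was higher and 2 were lower at 7 dpf, where 6.65% and 7.03% of all genes were counted. The receptors Notch3 (0.987 and 2.39 CPM), Notch4 (2.18 and 1.15 CPM) and Notch2 (152 and 213 CPM) had the largest ratios in size at 7 dpf among genes with the same direction at 4 dpf. Of these Notch3 was counted, and the 2 genes counted as lower were Dlk1 and Gata2. In mesenchymal cells 6 of 54 were higher and none lower at 4 dpf, and 1 of 60 higher and 4 lower at 7 dpf. Of all genes 6.92% and 8.94% were counted there. By the naming rule Myc was at 47.8 and 76.3 CPM, Ccnd1, which drives entry into the cell cycle, at 32.2 and 23.4 CPM, and Tle3 at 51.1 and 65.03 CPM in control_7d and RA_7d.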

How the data were processed

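Libraries were made with Chromium 3′ chemistry from 10000 loaded cells each. The deposited values are unscaled UMI counts per cell barcode for 32285 genes, made by the authors with Cell Ranger 7.0.1 on mm10. Whether intronic reads were counted is not given in the sources used here, and their inclusion would weigh on long genes such as Rbpj and Tle4. Strand and multimapping settings were not given either.

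Of 34038 barcodes, cells with 4000 to 50000 UMIs, 2000 to 7000 detected genes and at most 8% mitochondrial UMIs were kept, as in the methods of the study. Libraries were integrated by canonical correlation and clustered in Seurat 5.3.0 (R 4.3.3) on 1990 variable genes, with the members and the Notch list left out. Clusters were named from 5 markers per type, with thresholds set after the clusters had been seen, so the names need not match those of the study. Doublets were called with Scrublet in scanpy 1.11.5 (612 cells) and kept in the main tables.

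UMIs were summed per class and library in Python 3.11.15 (scipy 1.17.1, numpy 2.4.6). Class values entered the order of levels and the similarity measure with at least 20 cells. Levels have exact Poisson intervals, shares exact Clopper-Pearson intervals, and ratios the exact conditional interval for 2 counts. A limit for 0 UMIs was set at 3 UMIs. Comparisons across genes used genes with at least 50 UMIs and a pseudocount of 1 CPM. No test was made between conditions, since each has 1 library. The ratio calculation was tested on simulated data.

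For each member, the 3 genes of highest Pearson r on log2(CPM + 1), among 13272 genes with at least 10 CPM in their highest class, were named. Of the Notch list, the 3 largest ratios to mesenchymal cells, and the 3 largest ratios of RA to control at 7 dpf with the same direction at 4 dpf, were named for each lineage. Markers and leading genes that check a class, and counted genes of the list named beside their count, fall outside that rule. The members and lists were chosen with earlier results of these data known. Alternatives were a looser cell filter (at least 1000 UMIs and 500 detected genes, at most 15% mitochondrial UMIs), no integration, a resolution of 1, the members among the variable genes, doublet calls left out, TMM scaling, a pseudocount of 10 CPM, a minimum of 10 UMIs, equal weights for classes, and no thinning. Positions come from GENCODE M21 (GRCm38).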

Additional observations from a re-analysis of the deposited data

Results flagged for a closer look

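In 7 pairs of a gene and a lineage, RA was above control at one time point and below it at the other, with both counting intervals leaving out 1. At each time point 34 pairs had enough UMIs to be compared. How many of all genes change sides in this way was not counted, so the 7 pairs cannot be read as a trait of these members. The difference between the time points was not tested, since each value compares 1 library with 1 library. Rbpj in myeloid cells had a ratio of RA to control of 0.81 at 4 dpf and 1.60 at 7 dpf, and in mesenchymal cells of 0.88 and 1.07. Of the 5 mesenchymal classes, 3 were lower in RA for Rbpj at 4 dpf and 1 at 7 dpf. Committed mesenchymal progenitors were lower at both times, and tenocyte precursors and Pi16 fibroblast precursors higher at both. Hey1 had ratios of 1.69 and 0.69 in mural cells and of 1.70 and 0.76 in mesenchymal cells. With classes weighted equally the mesenchymal Hey1 ratio at 4 dpf fell short of 1.5-fold. The mesenchymal cells also gave 2.37 and 0.79 for Heyl, 1.89 and 0.50 for Nrarp, and 1.62 and 0.62 for Lfng. For Lfng no interval of a mesenchymal class left out 1 at 4 dpf, while at 7 dpf those of 4 of 5 classes lay below 1. The 5 macrophage markers summed to 64.5, 55.3, 132 and 125 CPM in mesenchymal cells of control_4d, RA_4d, control_7d and RA_7d, against 5272 CPM in myeloid cells. Their part in the Lfng values was not tested. All 7 pairs rest on the same 4 libraries, and 5 of them are of mesenchymal cells.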

How the results depend on the processing

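The lineage with the highest level of each of the 8 genes, among the lineages with a name, was the same under every clustering, filter and scaling tried. For Hey1 this lineage was muscle and not endothelium, although arterial endothelial cells were its highest class. The lead of muscle cells for Hey1 held in RA_4d and RA_7d but not in the control libraries. In control_4d and control_7d Hey1 was higher over all endothelial cells than over all muscle cells, and in control_7d mural cells were above both. With a pseudocount of 10 CPM, 4 in place of 7 pairs of a member and a lineage passed 1.5-fold at 4 dpf, and 1 in place of 2 members was at least 2-fold higher in muscle than in mesenchymal cells. With classes weighted equally, 1 in place of 4 pairs passed at 7 dpf. Among the pairs counted at 4 dpf, Tle4 and Heyl in muscle cells and Hey1 in mesenchymal cells then fell short of 1.5-fold. The log2 ratio of Hey2 in endothelial cells turned to -0.28, where the classes lower in RA held at most 3 UMIs in a library. Equal weights moved 8 of the 11 named log2 ratios by more than the half-width of their counting interval, besides the turn of Hey2, and the pseudocount moved 4 and the looser filter 1, these without a change of direction. No integration, a resolution of 1, TMM scaling and the members among the variable genes moved none of the 11 by as much. Leaving out doublet calls moved none either, but the caller marked only 1 cell of RA_4d, so doublets there were not addressed. The lower UMI minimum decides which genes are compared and could not move a ratio. Without thinning, shares of cells with a UMI were higher, as their construction with more UMIs per cell requires. No paired analysis was possible because each condition had 1 library. Depth limits Hey2, Heyl and Nrarp most where their levels are near 0, and mural and muscle classes with fewer than 20 cells at 4 dpf.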
